A study of Mus musculus with 16 samples.

Results

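Mesenchymal stem cells of the bone marrow (marrow MSC, 3 arrays) were compared with cardiomyocytes (2 arrays) over all 17710 measured genes, which takes 5 of the 16 arrays of a study of mouse cardiac and marrow progenitor cells. The arrays were chosen by the cell type in their titles, and no measured value entered that choice. All cells came from C57BL/6 mice with the genotype given as normal. The marrow MSC were harvested after 5 passages in culture, and the cardiomyocytes, the working muscle cells of the heart, were collected by spinning at 100 rpm over 1 min. The other 11 arrays held c-kit cells of the marrow, and c-kit, Sca1 and side population cells of the heart. The labels give one growth protocol for every sample, on Matrigel dishes with mTeSR medium, the cardiomyocytes included. They name no age and no number of cells or animals, and they do not say whether replicates were separate animals or cultures. The p-values and SE therefore reflect only how far arrays scatter within populations, a scatter that may be technical. It was pooled over all 16 arrays of the 6 populations, not taken from the 5 compared arrays alone. Values are log2 levels of the Cy5 signal after quantile normalization, and a difference is marrow MSC minus cardiomyocyte on that scale.

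Marrow MSC are stromal cells that grow on plastic and can form bone, fat and cartilage, and in the marrow they secrete signals for blood cells. Cardiomyocytes contract through sarcomeres of actin and myosin filaments, and each beat is driven by calcium that leaves the sarcoplasmic reticulum and is pumped back by the SERCA ATPase. Gremlin 1, the product of Grem1, is a secreted antagonist of bone morphogenetic proteins (BMPs) and a known marker of skeletal stromal cells. Phospholamban, the product of Pln, inhibits SERCA, and Atp13a3 encodes a P-type ATPase of the endosomal system linked to polyamine transport.

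The difference between both populations called 1393 of 17710 genes (7.87%) at a limma adjusted p under 0.05, 696 of them higher in marrow MSC (3.93%) and 697 lower (3.94%). Counts of list members given below are to be read beside these shares. The called genes differed by at least 1.73 log2 units, with a median size of 3.91, while the median over all genes was 0.10. On none of the called genes did the 2 groups of arrays overlap, but the groups also lay apart for 48% of all genes, so separation alone is common here. The balance of directions rests on the scaling. With medians aligned only, 749 genes were called, 484 higher and 265 lower (35.4% lower), and the median of all genes moved to 0.46; on the deposited values it was 0.29, with 583 higher and 343 lower among 926 called. Leaving out 1 array lowered the count to between 462 (without cardiomyocyte replicate 1) and 855 (without cardiomyocyte replicate 2), with 771, 850 and 801 without marrow MSC replicates 1, 2 and 3.

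**Figure D1:**
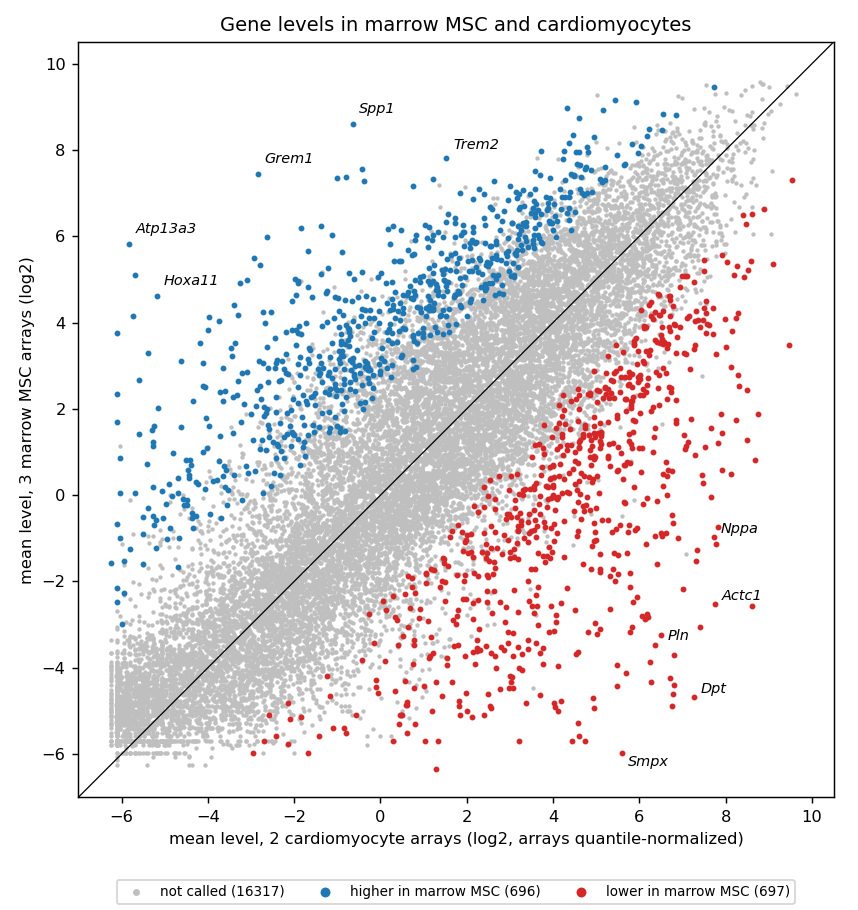
Mean log2 level of each of 17710 genes on the 3 marrow MSC arrays (vertical) against the 2 cardiomyocyte arrays (horizontal), with called genes in blue (696 higher in marrow MSC) and red (697 lower); the line marks equal levels. Grem1 and Atp13a3 stand far above the line, and Smpx, Dpt and Actc1 far below it.

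The 5 arrays agreed more within than between populations: Pearson correlations across genes (not independent of each other) were 0.935 to 0.942 among marrow MSC, 0.894 between the cardiomyocyte arrays and 0.758 to 0.841 between the populations. Median spot intensities were 88, 173 and 78 for marrow MSC and 99 and 200 for cardiomyocytes. Each array carries 1 repeated value, taken as a fill for spots without usable signal, at 11.3%, 4.52% and 10.8% of marrow MSC probes and at 4.55% and 3.38% of cardiomyocyte probes. After normalization it lies near the bottom of each array (-5.50, -6.08 and -5.50 on the marrow MSC arrays and -6.11 on both cardiomyocyte arrays), so differences with a side near it are uncertain in size.

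The labels were checked against marker panels. The cardiomyocyte panel had 8 of its 13 genes measured and 6 were lower in marrow MSC, with panel means of -0.19, 0.55 and -0.37 on the marrow MSC arrays and 6.58 and 6.64 on the cardiomyocyte arrays; Myh6, Myl2, Myl3, Ryr2 and Nkx2-5 were not analysed here. Of the marrow MSC panel 11 of 12 genes were measured, and the panel mean was 5.00, 5.05 and 5.09 against 2.89 and 3.33. Grem1 and Atp13a3 carry that gap: the other 9 genes had means of 4.66, 4.71 and 4.72 against 4.40 and 5.13, so the arrays overlapped. Within the panel Grem1, Atp13a3 and Cd44 were higher and Eng was lower, and 7 genes were not called, among them Pdgfra at 4.88, 4.88 and 5.49 against 7.04 and 7.02. Markers of other cell types were read on both sides. All 6 endothelial markers were lower in marrow MSC, with panel means of -1.09, -1.04 and -1.58 against 6.25 and 6.77 in cardiomyocytes. The call of Vwf (-4.81) was lost without any 1 marrow MSC array (limma adjusted p = 0.077 to 0.097). It was also lost with medians aligned (0.17) and on the deposited values (0.14). The same held without either cardiomyocyte array (differences of -4.99 and -4.62 without replicates 1 and 2). The call of Kdr (-6.62) was lost with medians aligned (limma adjusted p = 0.054) and without cardiomyocyte replicate 1 (difference of -6.57). The 5 measured macrophage markers, of 7, had means of 5.20, 5.59 and 5.26 on the marrow MSC arrays against 2.09 and 3.09, with none called; Ptprc, which encodes the leukocyte antigen CD45, stood at 6.71, 7.53 and 6.91 against 4.30 and 4.22. In such bulk samples fewer cells of a type and less RNA per cell cannot be told apart.

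Promoter sequences are shown for 3 genes that mark the ends of the comparison: Grem1, which was higher in marrow MSC, and Actc1 and Pln, muscle genes that were lower. Each runs from 250 bases before to 50 after the transcript start in RefSeq (build GRCm38.p6), and capitals mark matches, on either strand, to 7 motifs. These were the NF-Y motif CCAAT, the core promoter motif TATAAA, the motif AGATAA read by Gata factors, the muscle enhancer motif CATTCC read by Tead factors, the Fos and Jun motif TGANTCA, the CArG box and the MEF2 box.
Grem1: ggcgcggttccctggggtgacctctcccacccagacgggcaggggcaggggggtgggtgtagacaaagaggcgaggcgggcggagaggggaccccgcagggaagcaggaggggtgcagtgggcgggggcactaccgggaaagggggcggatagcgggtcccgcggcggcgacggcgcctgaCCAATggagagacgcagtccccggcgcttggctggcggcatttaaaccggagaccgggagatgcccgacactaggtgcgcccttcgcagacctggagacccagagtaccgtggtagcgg
Actc1: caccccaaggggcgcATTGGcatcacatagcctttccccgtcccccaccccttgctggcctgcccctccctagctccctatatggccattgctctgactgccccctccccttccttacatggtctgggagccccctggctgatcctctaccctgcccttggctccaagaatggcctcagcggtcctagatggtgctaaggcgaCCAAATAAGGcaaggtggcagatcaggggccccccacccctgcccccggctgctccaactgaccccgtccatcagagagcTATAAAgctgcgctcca
Pln: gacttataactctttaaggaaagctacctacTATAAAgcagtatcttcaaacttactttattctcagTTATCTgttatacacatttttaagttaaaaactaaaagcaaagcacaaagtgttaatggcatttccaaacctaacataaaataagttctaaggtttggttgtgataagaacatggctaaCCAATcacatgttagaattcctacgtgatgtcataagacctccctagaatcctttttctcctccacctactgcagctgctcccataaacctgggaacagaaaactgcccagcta
The Grem1 window (chr2:113758599-113758898, minus strand) held a CCAAT that begins at position -69 from the start. That of Actc1 (chr2:114052826-114053125, minus strand) held a CArG box at -47, the letters read by serum response factor in many muscle genes, besides a reverse CCAAT at -235 and a TATAAA at 34. The Pln window (chr10:53337436-53337735, plus strand) held TATAAA at -219, a reverse AGATAA at -183 and CCAAT at -64. Among all 32851 promoter windows of this length 37.4% held CCAAT, 13.6% TATAAA, 11.2% AGATAA, 14.7% CATTCC, 7.81% TGANTCA, 1.63% the CArG box and 0.557% the MEF2 box. The matches printed do not overlap each other, and they describe letters, not binding. Windows of further genes were read but are not printed. Those of Tnni3, Des, Actn2, Casq2, Csrp3 and Hoxa11 held none of the 7 motifs. Those of Tnnt2, Nppa, Mb, Ckmt2, Smpx, Emx2 and Timp1 held some. Among these and the printed windows only that of Actc1 held a CArG box. Grem1 and Actc1 start 294 kb apart on the same chromosome and differed in opposite directions.

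Grem1 and Atp13a3 were higher in marrow MSC by margins near the top of the whole comparison. Grem1 read 7.41, 7.20 and 7.74 on the marrow MSC arrays and -2.50 and -3.18 on the cardiomyocyte arrays, a difference of 10.29 ± 1.27 (SE; limma adjusted p = 0.00039). Every marrow MSC array lay far above both cardiomyocyte arrays. Among 16 measured BMP antagonists Grem1 was the only member called higher, and the list median was -0.95, or -0.08 with medians aligned and -0.25 on the deposited values. Follistatin (Fst), which binds activins, read 3.53, 3.58 and 4.26 against 1.89 on the higher of the cardiomyocyte arrays, a difference of 3.35 that missed the threshold (adjusted p = 0.054). Sostdc1 was the member called lower (-6.14, adjusted p = 0.018), with 2 marrow MSC arrays at the fill value. Its call was lost in every fit that left out 1 array (adjusted p = 0.050 to 0.13) and when fill values were left out. Differences in Chrd, Bmper, Nbl1, Twsg1 and Fstl3 ranged from -1.65 to 0.34 and were not called.

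Ligands and receptors of the same pathway moved in both directions. Inhba, which encodes the activin A subunit, read 6.25, 5.79 and 6.76 in marrow MSC and 2.55 and 2.31 in cardiomyocytes (3.84 ± 0.67, adjusted p = 0.0034). Bmp6 went the other way, at -0.95, 0.20 and -0.13 against 4.79 and 5.20 (-5.29 ± 0.59, adjusted p = 0.00019). Inhba kept its call under all alternatives, while that of Bmp6 was lost only with medians aligned. Bmp10, a ligand of cardiac muscle, was lower by 8.06 and Gdf10 by 4.47, both calls being lost without cardiomyocyte replicate 2 (-7.16 and -2.78, adjusted p = 0.059 and 0.24); Gdf10 was also lost without any 1 of the marrow MSC arrays (adjusted p = 0.074 to 0.11). Inhbb was higher by 3.30, a call lost without cardiomyocyte replicate 1 (2.68, adjusted p = 0.11) and under both other scalings. In all, 2 of 19 ligands were higher and 3 lower, against 3.93% and 3.94% of all genes. Of 21 receptors, Smads and targets only Acvr1b, Bmpr2 and Acvrl1 were called, all lower by 2.27 to 2.90, and none of these 3 calls was stable: 0 or 1 remained in each fit that left out 1 array. The median of that list was -1.02 and turned to 0.60 with medians aligned and to 0.43 on the deposited values.

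Atp13a3 read 5.70, 6.05 and 5.73 in marrow MSC against -5.26 and -6.38 in cardiomyocytes, a difference of 11.64 ± 1.06 (adjusted p = 4.3e-05). Its cardiomyocyte levels are close to the fill value, so the size is uncertain, but the arrays did not overlap. Its paralogs Atp13a1, Atp13a2, Atp13a4 and Atp13a5 differed by -0.79, 3.17, -1.62 and 0.98. None was called, which does not show that their levels are alike in both populations. Atp13a2 read 2.75, 3.56 and 2.53 against -1.28 and 0.83, without overlap. Of 31 measured P-type ATPases 2 were higher and 3 lower, against 3.93% and 3.94% of all genes. Atp8b4, a phospholipid flippase, was the other higher member, with 4.79, 4.70 and 3.72 against -4.29 and -2.47 (7.79 ± 0.92, adjusted p = 0.00030). The plasma membrane calcium pump Atp2b4 was lower by 4.26 (adjusted p = 0.0030), a call lost with medians aligned only and on the deposited values. Atp8b1 and Atp10d were lower by 4.11 and 3.50, and both calls were lost without cardiomyocyte replicate 1 (adjusted p = 0.094 and 0.055). Atp8b1 was also lost without cardiomyocyte replicate 2 (0.070), without marrow MSC replicates 2 or 3 and under both other scalings. None of 12 measured genes of polyamine synthesis and turnover was called, with a list median of 0.25 (0.81 and 0.64 under the other scalings).

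Pln, the marker from the muscle side, read -2.56, -0.85 and -6.33 in marrow MSC and 6.63 and 6.40 in cardiomyocytes (-9.76 ± 1.76, adjusted p = 0.0042). The marrow MSC arrays spread widely, all of them low, while the cardiomyocyte pair was tight. The value of -6.33 on marrow MSC replicate 3 lies below the fill of its array, so the size is uncertain. Without that array the difference was -8.2 (limma adjusted p = 0.017). Sarcolipin (Sln), a relative of phospholamban best known from atrial muscle, was lower too, at -3.69, -3.75 and -2.04 against 5.62 and 4.02 (-7.98 ± 0.90, adjusted p = 0.00021). Casq2, the calcium store protein of cardiac reticulum, read 0.23, 0.79 and 1.32 against 6.54 and 6.70 (-5.85 ± 0.96, adjusted p = 0.0024), with the call lost only with medians aligned. Of 22 calcium handling genes 6 were lower and none higher, with a median of -1.11. Hrc, Srl and Camk2d completed the 6. Without either cardiomyocyte array 3 of the 6 calls remained, and all these 3 were lost there: Hrc at adjusted p = 0.094 and 0.065, Srl at 0.19 and 0.15 and Camk2d at 0.055 and 0.14, without cardiomyocyte replicates 1 and 2. Each was also lost without at least 1 marrow MSC array: Hrc without replicate 1 (0.055), Srl without replicate 2 (0.052) and Camk2d without either of these (0.069 and 0.083). Medians aligned left 2 calls and the deposited values 3. The pump itself, Atp2a2, read 4.83, 4.17 and 4.30 against 7.54 and 7.56, a difference of -3.12 ± 0.93 that was not called (adjusted p = 0.057) although the arrays did not overlap. Slc8a1, Cacna1c, Jph2 and Trdn differed by -0.94 to -1.33 without a call.

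**Figure D2:**
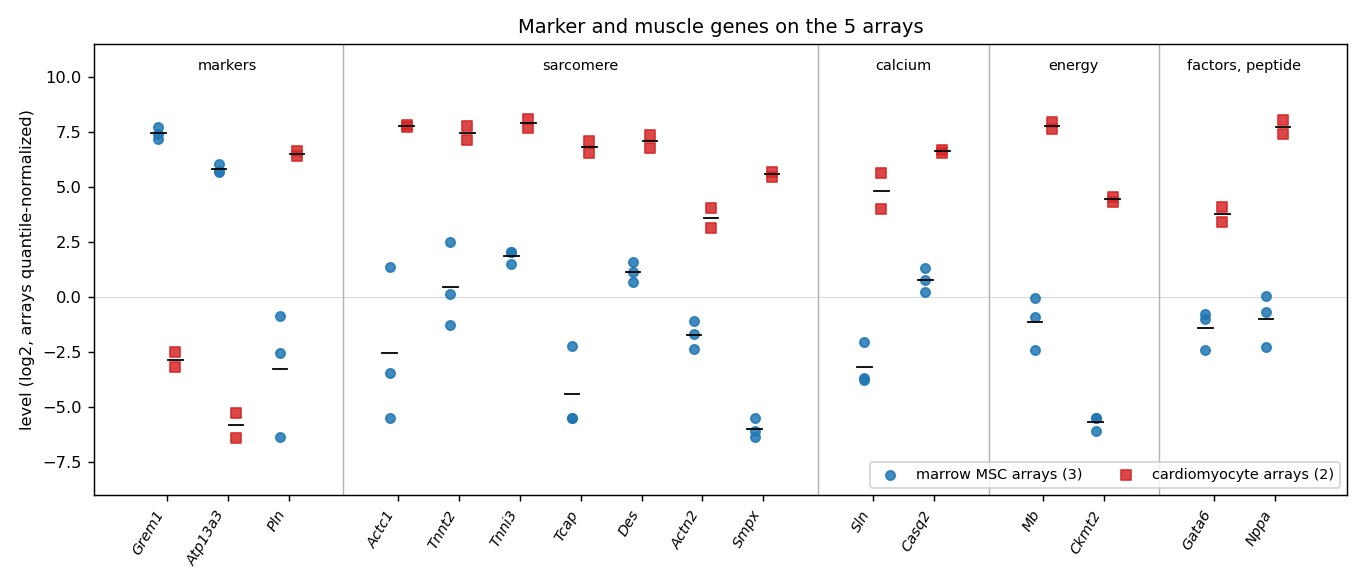
Log2 levels of marker and muscle genes on the 3 marrow MSC arrays (blue circles) and the 2 cardiomyocyte arrays (red squares), with black bars at the group means. Grem1 and Atp13a3 are high on all marrow MSC arrays, and for every muscle gene plotted both cardiomyocyte arrays lie above all marrow MSC arrays.

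Contractile genes lay lower in marrow MSC. All 7 measured thick and thin filament genes had negative differences, with a median of -3.51, and 4 were called. Cardiac actin (Actc1) read -5.50, 1.38 and -3.45 in marrow MSC, the first being the fill value, and 7.80 and 7.71 in cardiomyocytes (-10.28 ± 1.59, adjusted p = 0.0016). Troponin I (Tnni3) read 2.04, 1.52 and 2.05 against 7.68 and 8.11 (-6.02 ± 0.60, adjusted p = 9.4e-05). Troponin T (Tnnt2) was lower by 6.99 (adjusted p = 0.0019). Its marrow MSC levels of 0.12, -1.26 and 2.51 spread widely but stayed below 7.77 and 7.12. Troponin C (Tnnc1), lower by 3.43, lost its call in each fit without 1 array (adjusted p = 0.072 to 0.16) and under both other scalings. The other 3 calls held in all 5 such fits, and titin (Ttn) differed by -3.51 without a call. Missing members, among them the cardiac myosins, were not analysed here.

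At the Z-disc, M-band and junctions 10 of 22 genes were lower and none higher, with a median of -3.22; leaving out 1 array left 7 to 9. Telethonin (Tcap), which caps titin at the Z-disc, read -5.50, -2.22 and -5.50 against 7.10 and 6.53 (-11.22 ± 1.23, adjusted p = 0.00018), 2 of the low values being fills. Desmin (Des), the intermediate filament of muscle, read 1.15, 0.68 and 1.61 against 7.37 and 6.78 (-5.93 ± 0.64, adjusted p = 0.00016). Alpha-actinin 2 (Actn2) and plakoglobin (Jup) were lower by 5.30 and 5.18 (adjusted p = 0.00069 and 0.00095). Smpx, a small protein of striated muscle, was among the lowest genes of the comparison, at -5.50, -6.08 and -6.33 against 5.71 and 5.47 (-11.56 ± 1.16, adjusted p = 9.4e-05); 2 of the marrow MSC values are fills and the third lies below the fill of its array, so the size is uncertain. For all of these the populations were far apart on every array. Lmod2, lower by 6.69 and with 2 fills, lost its call without either cardiomyocyte array (adjusted p = 0.0997 and 0.0755) and without marrow MSC replicates 1 or 3 (adjusted p = 0.052 for each). One muscle actin went against the rest: skeletal actin (Acta1) read 2.07, 0.69 and 1.67 in marrow MSC and -2.04 and -2.05 in cardiomyocytes (3.52 ± 0.86, adjusted p = 0.023). That call was lost under both other scalings. Under the main scaling it was lost without either cardiomyocyte array (differences of 3.525 and 3.515 without replicates 1 and 2). The same held without marrow MSC replicates 1 or 3 (limma adjusted p = 0.087 and 0.0715).

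Of 15 genes of muscle energy transfer and glucose use 4 were lower, and the count was 4 whichever array was left out, although Pgam2 was not called without cardiomyocyte replicate 2 (-5.32, adjusted p = 0.062). Myoglobin (Mb), the oxygen store, read -2.42, -0.05 and -0.91 against 7.94 and 7.62 (-8.91 ± 1.43, adjusted p = 0.0020); its probes differed in size, from -8.91 to -2.41. Mitochondrial creatine kinase (Ckmt2) was at the fill value on all 3 marrow MSC arrays and at 4.33 and 4.56 in cardiomyocytes. Art1 was at the fill value there too, with 0.46 and 1.62 in cardiomyocytes, and Pgam2, muscle phosphoglycerate mutase, read -0.89, -2.45 and -5.50 against 2.38 and 3.38. With fill values left out 2 genes of the list were called. Few genes of the general pathways were called. None of 26 genes of fatty acid uptake and oxidation was called; their median of -0.70 turned to 0.58 with medians aligned and 0.41 on the deposited values. Of 42 genes of the citrate cycle and respiratory chain only the muscle isoforms Cox8b and Cox7a1 were called, lower by 7.27 and 4.31, and the list median of 0.09 was 1.60 with medians aligned and 1.43 on the deposited values, against 0.46 and 0.29 for all genes. The call of Cox7a1 was lost whichever array was left out (adjusted p = 0.066 to 0.24), and that of Cox8b in 4 of these 5 fits (0.067 to 0.11), the exception being marrow MSC replicate 3.

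Channels, transcription factors and peptides of the heart followed the contractile genes in part. Of 22 ion channel and connexin genes 5 were lower and none higher, with a median of -2.14, and 3 remained without marrow MSC replicate 1 or 2 or without either cardiomyocyte array. Connexin 40 (Gja5), of atrial muscle, conduction fibres and arterial endothelium, read -0.66, 0.71 and -0.46 against 6.43 and 6.37 (-6.53 ± 1.14, adjusted p = 0.0035). The atrial potassium channel Kcna5 was lower by 8.18 with 2 fills, a call lost without cardiomyocyte replicate 1 (-7.64, adjusted p = 0.059). Of 24 cardiac transcription factors 5 were lower and 1 higher. Gata6 read -2.42, -0.78 and -1.01 against 4.10 and 3.44 (-5.17 ± 0.76, limma adjusted p = 0.0012). Among the lower members it alone kept its call without either cardiomyocyte array. Tbx20, lower by 7.37, had adjusted p = 0.060 and 0.061 in those fits, and Mef2c, lower by 2.97, had 0.077 and 0.062 and was also lost under both other scalings. Irx5 was the member called higher (4.45), lost without cardiomyocyte replicate 1 (3.32, adjusted p = 0.28) and without marrow MSC replicates 1 or 2 (0.091 and 0.073). Atrial natriuretic peptide (Nppa) read -2.28, 0.04 and -0.70 in marrow MSC and 8.07 and 7.41 in cardiomyocytes (-8.72 ± 1.19, adjusted p = 0.00072). It was the one of 3 lower members among 14 peptide and stress genes to hold in every fit that left out 1 array. Corin, the protease that processes it, was lower by 4.86 and lost its call without 4 of the 5 arrays (adjusted p = 0.053 to 0.15).

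Of the 43 gene lists the endothelial one had the most genes lower in marrow MSC. Of 30 measured endothelial genes 24 were lower, none higher, all 30 differences were negative and the median was -6.67, against 3.94% of all genes called lower. VE-cadherin (Cdh5), the junction protein of vessels, read -3.21, -2.84 and -4.37 against 6.37 and 6.37 (-9.84 ± 1.56, adjusted p = 0.0019). The vascular phosphatase Ptprb read -5.50, -5.26 and -3.03 against 7.01 and 6.56 (-11.38 ± 0.96, adjusted p = 2.9e-05), with 1 fill. Robo4 read -3.21, -3.24 and -2.68 against 7.16 and 7.67 (-10.46, adjusted p = 0.0014). The factors Sox17 and Sox7 had differences of -10.61 and -9.41 (adjusted p = 0.0020 and 7.1e-05). The high values are those of the cardiomyocyte arrays, and they sit beside the endothelial panel means of 6.25 and 6.77 given above; the part of other heart cells in these levels was not tested. The count was 22 without any 1 marrow MSC array, 19 and 20 without cardiomyocyte replicates 1 and 2, and 16 with medians aligned only.

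Some genes of vessel walls, fibroblasts and the epicardium were also lower. Rgs5, of pericytes, read 0.75, 2.07 and 1.47 against 7.97 and 7.87 (-6.49 ± 0.74, adjusted p = 0.00023). Of 16 smooth muscle and pericyte genes 6 were lower, 3 without cardiomyocyte replicate 2, and desmin counts among them; Acta2, smooth muscle actin, read 8.43, 8.11 and 8.40 against 7.98 and 7.75 and was not called (adjusted p = 0.83). Of 23 fibroblast and epicardium genes 9 were lower and none higher, with a median of -2.23; 4 remained without cardiomyocyte replicate 2. Dermatopontin (Dpt), a matrix protein, had the most negative difference of the genes named here, at -5.50, -3.05 and -5.50 against 6.89 and 7.64 (-11.95 ± 1.40, adjusted p = 0.00028), 2 of the low values being fills. Pi16 read -0.68, -1.12 and -1.22 against 6.43 and 7.36 (-7.90 ± 0.64, adjusted p = 2.5e-05). Wt1, a factor of the epicardium, read -5.50, -4.29 and -1.78 against 6.45 and 6.06 (-10.11, adjusted p = 0.00036), with 1 fill. Complement C7 was lower by 8.97 with 2 fills. As with the endothelial genes, the high side was the cardiomyocyte arrays, and the part of other heart cells was not tested.

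Of 24 osteoblast lineage genes 4 were higher in marrow MSC, 2 were lower and 18 were not called. Osteopontin (Spp1), a secreted matrix protein of bone that macrophages also make, read 8.51, 8.72 and 8.56 against -1.13 and -0.14 (9.24 ± 0.73, adjusted p = 2.5e-05). Dlx5, a homeobox factor of osteoblasts, read 6.58, 5.79 and 6.32 against -2.27 and -0.48 (7.61 ± 0.90, adjusted p = 0.00029), with a second probe at 3.1. Both held in every alternative run. Bone sialoprotein (Ibsp) was higher by 3.97, a call lost without either cardiomyocyte array (adjusted p = 0.068 and 0.13) and without marrow MSC replicates 1 or 2 (adjusted p = 0.089 and 0.077), as well as under both other scalings. The osteoblast factor Sp7 and the osteocyte gene Sost were lower by 5.51 and 4.53, and both lost that call without either cardiomyocyte array (adjusted p = 0.052 to 0.16) and without marrow MSC replicates 1 or 3 (0.050 to 0.086), Sp7 also without marrow MSC replicate 2 (0.070). Runx2, Alpl and Bglap differed by 0.53, 0.20 and -0.96 without a call. Without cardiomyocyte replicate 1, 2 of the list were higher and none lower. Of the cartilage genes Col2a1 was higher (4.19, adjusted p = 0.0079), lost without cardiomyocyte replicate 2 (3.79, adjusted p = 0.064). Of the fat lineage Cebpb was higher by 2.90, lost without cardiomyocyte replicate 1 (2.70, adjusted p = 0.083), and Cebpd was lower by 5.24 (adjusted p = 0.0015).

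Among 33 Hox genes, which encode position along the body axis, 6 were higher in marrow MSC and none lower; 4 to 6 were called with 1 array left out. Hoxa11 read 4.67, 4.15 and 5.01 against -4.71 and -5.63 (9.78 ± 1.09, adjusted p = 0.00019). Hoxc10 read 5.69, 4.78 and 5.55 against -2.57 and -2.99 (8.13 ± 1.10, adjusted p = 0.00070). Hoxc6 and Hoxa9 were higher by 6.66 and 5.74 (adjusted p = 0.0019 and 0.0031). Hoxa6 had 3.16, and its call was lost without cardiomyocyte replicate 1 (1.59, adjusted p = 0.51), without marrow MSC replicates 1 or 3 (0.12 and 0.16) and in 6 other alternatives, both other scalings among them. All 6 called genes belong to the Hoxa and Hoxc clusters, and no Hoxb or Hoxd gene was called. Among all genes the share called higher was 3.93%. Emx2, another homeobox gene of limb girdle and kidney development, read 3.93, 3.83 and 3.51 in marrow MSC and was at the fill value on both cardiomyocyte arrays.

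Surface and niche markers of MSC went both ways, as did all genes, of which 3.93% were called higher and 3.94% lower. Of 31 such genes 4 were higher, 3 lower and the median was -0.16, which turned to 0.33 with medians aligned and 0.16 on the deposited values. Prrx2, a mesenchymal homeobox factor, read 4.23, 3.44 and 3.71 against -2.08 and -2.30 (5.98 ± 0.75, adjusted p = 0.00045), and it held in every alternative run. Cd44, the hyaluronan receptor, read 7.75, 8.44 and 8.24 against 5.96 and 5.70 (2.31, adjusted p = 0.024); the call was lost in 4 of the 5 fits that left out 1 array (adjusted p = 0.0755 to 0.11), all but that without marrow MSC replicate 1. Itga5 and Cd9 were higher by 3.13 and 2.77, and both calls were lost without any 1 marrow MSC array and without cardiomyocyte replicate 1 (adjusted p = 0.25 and 0.40 there), Itga5 also without cardiomyocyte replicate 2 (0.079), and both with medians aligned only, Cd9 also on the deposited values; 1 or 2 of the 4 higher calls remained in each fit that left out 1 array. Eng, which is endoglin and also endothelial, read 2.81, 2.57 and 2.55 against 5.31 and 5.48 (-2.75, adjusted p = 0.0052), a call lost with medians aligned (-1.15, adjusted p = 0.55) and on the deposited values (-1.32, adjusted p = 0.39). Icam1 was lower by 4.19, lost without cardiomyocyte replicate 2 (-3.58, adjusted p = 0.069) and under both other scalings.

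Matrix genes differed in composition. Of 28 collagen chains 2 were higher and 6 lower, and the median of -1.28 turned to 0.13 with medians aligned, staying at -0.04 on the deposited values. Col12a1, a fibril-associated chain, read 2.63, 1.76 and 1.96 against -2.84 and -3.49 (5.28 ± 0.80, adjusted p = 0.0014). The basement membrane chains Col4a3 and Col15a1 were lower by 7.33 and 6.19 (adjusted p = 0.00035 and 0.00048), and Col14a1 by 5.07 (adjusted p = 0.00038). The main chains of collagen I, Col1a1 and Col1a2, differed by -0.11 and 1.39 without a call. Of 37 glycoproteins and proteoglycans 12 were lower and 2 higher, 4 lower without either cardiomyocyte array and 6 under both other scalings. Elastin (Eln) read -0.29, 0.23 and -0.05 against 7.19 and 8.15 (-7.71 ± 0.82, adjusted p = 0.00015). Tenascin X (Tnxb) and Mfap5, which bind collagen and elastic fibrils, were lower by 7.15 and 7.01 (adjusted p = 0.00036 and 0.0032). Collagen-modifying enzymes had 3 of 26 higher, P4ha3 by 4.34, but none of the 3 was called without cardiomyocyte replicate 1, where P4ha3 differed by 3.33 (adjusted p = 0.23), and 1 was without marrow MSC replicate 1.

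Proteases and their inhibitors leaned to the marrow MSC, with 8 of 37 higher and 4 lower, against 3.93% and 3.94% of all genes. Timp1, an inhibitor of matrix metalloproteinases, read 7.62, 7.22 and 7.86 against -1.53 and 0.68 (7.99 ± 0.89, adjusted p = 0.00019). Its relative Timp4, known from the heart, was lower by 7.19, lost without cardiomyocyte replicate 2 (-6.21, adjusted p = 0.076). The protease Adamts1 read 2.78, 2.55 and 2.23 against 8.12 and 8.48 (-5.78 ± 0.54, adjusted p = 4.8e-05). Adam8, a membrane protease of leukocytes, was higher by 8.19, a call lost without cardiomyocyte replicate 1 (6.67, adjusted p = 0.11), where 3 of the 8 higher calls remained. The other fits without 1 array kept 4 (marrow MSC replicate 1) or 5.
Of 25 integrins 6 were higher and 4 lower, with 1 higher without cardiomyocyte replicate 1 and 2 without marrow MSC replicate 2. Itgax, the CD11c chain of myeloid cells, read 4.72, 5.28 and 5.39 against -1.56 and -1.21 (6.52 ± 0.88, adjusted p = 0.00070). Itga8 and Itga1 were lower by 6.68 and 6.04 (adjusted p = 0.0020 and 0.0014). Of 31 genes of the nonmuscle actin cytoskeleton 4 were higher, 2 without marrow MSC replicates 1 or 3. The largest of these differences was that of galectin 3 (Lgals3), which was listed there although it is a lectin of macrophages and stromal cells. It read 6.03, 6.75 and 6.03 against 2.28 and -0.22 (5.24 ± 0.83, limma adjusted p = 0.0020).

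**Figure D3:**
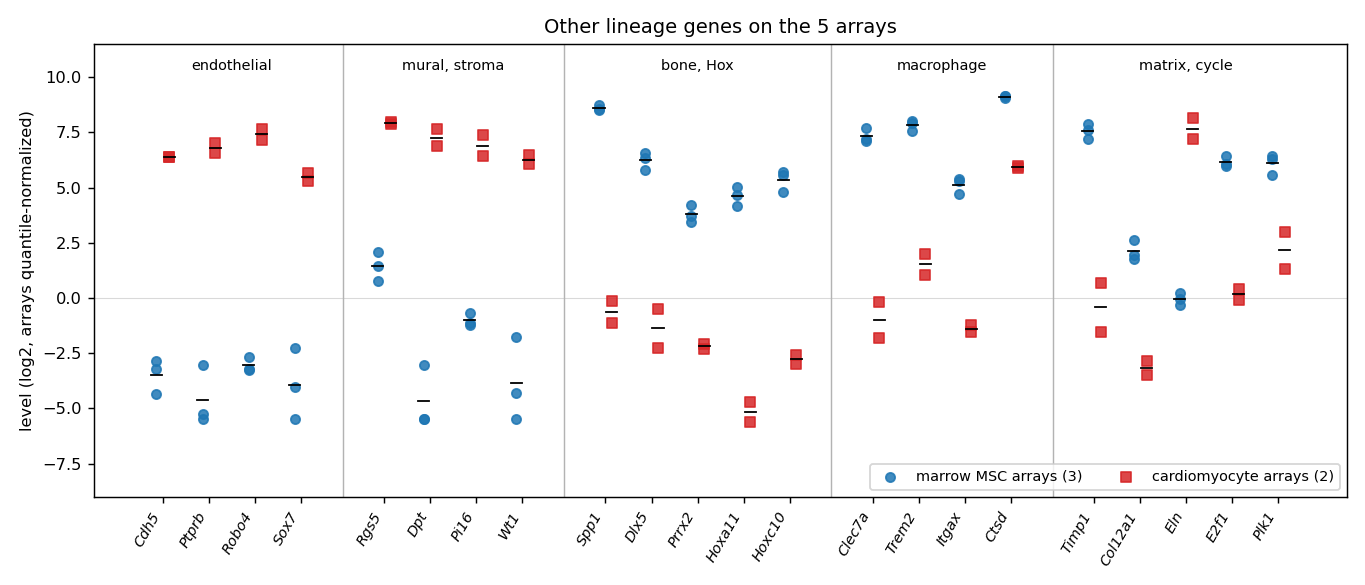
Log2 levels of endothelial, mural and stromal, bone and Hox, macrophage, and matrix and cell cycle genes on the 3 marrow MSC arrays (blue circles) and the 2 cardiomyocyte arrays (red squares), with black bars at the group means. Endothelial and mural genes are high on both cardiomyocyte arrays, while the bone, Hox and macrophage genes plotted are high on all marrow MSC arrays.

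Of 26 macrophage and leukocyte genes 9 were higher in marrow MSC, 1 was lower and 16 were not called, against 3.93% of all genes called higher, and the median was 2.96. Clec7a, the beta-glucan receptor dectin 1, read 7.12, 7.70 and 7.22 against -1.83 and -0.20 (8.36 ± 1.36, adjusted p = 0.0022). Trem2, a lipid receptor of macrophages, read 7.55, 7.99 and 7.92 against 2.01 and 1.05 (6.29 ± 0.88, adjusted p = 0.00087). Mpeg1 and the scavenger receptor Msr1 were higher by 5.95 and 4.58, and both calls were lost without cardiomyocyte replicate 1 (adjusted p = 0.24 and 0.055), that of Mpeg1 also in the other 4 fits that left out 1 array (0.069 to 0.090). The number higher was 2 without that array, 4 without cardiomyocyte replicate 2, 5 without marrow MSC replicate 2 and 11 with medians aligned only. Cd163, a receptor of resident macrophages, went the other way, with 2.22, 1.29 and -6.33 against 5.88 and 7.15; its call was lost without marrow MSC replicate 3 (-4.76, adjusted p = 0.092) and without either cardiomyocyte array (adjusted p = 0.17 and 0.15). C1qa, Csf1r and Adgre1 differed by 3.09, 2.99 and 2.85 without a call. The part of macrophages in the marrow MSC cultures was not tested.

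Lysosomal genes stood above the middle of all genes, with 27 of 28 differences positive and a median of 1.75 (3.09 with medians aligned, 2.91 on the deposited values), although only 3 were called. The number called was 1 without any 1 marrow MSC array, 6 with medians aligned and 9 on the deposited values. Cathepsin D (Ctsd), an acid protease, read 9.03, 9.14 and 9.16 against 5.88 and 5.99 (3.18 ± 0.52, adjusted p = 0.0023), 2 of the marrow MSC spots lying within 5% of the brightest value the scanner gives. Of 32 chemokine and cytokine genes 8 were higher and 3 lower. Ccl7, which attracts monocytes, read 3.36, 3.89 and 5.31 against -2.22 and 0.51 (5.04, adjusted p = 0.0029), lost without cardiomyocyte replicate 1 (3.68, adjusted p = 0.056). Only 1 of the 8 higher calls remained without that array, and 4 or 5 without any 1 marrow MSC array. Il6 and Il33 were lower by 7.31 and 7.11, both lost with medians aligned and without either cardiomyocyte array. Without cardiomyocyte replicates 1 and 2 the differences were -7.71 and -6.92 for Il6 and -8.27 and -5.95 for Il33. The call of Il6 was also lost without any 1 marrow MSC array (limma adjusted p = 0.056 to 0.081). That of Il33 was lost without marrow MSC replicates 1 or 2 (0.13 and 0.12) and with fill values left out.

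Growth factors went both ways, with 7 of 43 higher and 5 lower; no higher call was left without cardiomyocyte replicate 1, and 3 were left without cardiomyocyte replicate 2 and without marrow MSC replicates 1 or 3. Fgf1, a growth factor of heart muscle, read -4.02, -3.05 and -6.33 against 2.61 and 3.37 (-7.45 ± 0.90, adjusted p = 0.00035). Igf2 and Igfbp3, a growth factor and a carrier that binds it, were lower by 6.18 and 6.07 (adjusted p = 0.0034 and 7.7e-05). Those 3 calls held in every fit that left out 1 array. Fgf7, a stromal factor for epithelia, was higher by 7.17 (adjusted p = 0.035) and its call was lost in each of these fits (adjusted p = 0.076 to 0.25), as was that of the receptor Met (4.98; adjusted p = 0.053 to 0.40). In the Wnt pathway 4 of 37 genes were lower and 1 higher, against 3.94% and 3.93% of all genes. The receptor Fzd4, of vessels among other tissues, read -2.84, -3.05 and -4.37 against 3.37 and 2.53 (-6.37 ± 1.08, adjusted p = 0.0029), and it held in all 5 such fits. Fzd6, Frzb and Wif1 (lower by 2.79 to 3.69) and Rspo2 (higher by 3.80) did not. Between 1 and 4 lower Wnt calls remained: 1 without marrow MSC replicate 1 and 2 without marrow MSC replicate 2 or either cardiomyocyte array.

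Differences of cell division genes were mostly positive. For 28 of 33 mitosis genes and 29 of 30 replication genes the difference was positive, with medians of 2.89 and 1.95, but only 8 and 4 were called. E2f1, a factor of S-phase entry, read 6.42, 6.09 and 5.97 against -0.08 and 0.43 (5.98 ± 0.95, adjusted p = 0.0019). The mitotic kinase Plk1 read 6.28, 5.58 and 6.42 against 2.99 and 1.31 (3.94 ± 0.66, adjusted p = 0.0026). Cyclin F (Ccnf) read 5.09, 4.61 and 5.08 against -3.23 and -3.27 (8.17 ± 1.46, adjusted p = 0.0039). These 3 calls held whichever array was left out. Foxm1 and Ccna2 were higher by 5.96 and 5.71 and lost their calls without cardiomyocyte replicate 1 (adjusted p = 0.12 and 0.25) and without marrow MSC replicates 1 or 3, Foxm1 also in the remaining 2 such fits. Mitosis calls numbered 1 without cardiomyocyte replicate 1, 3, 5 and 2 without marrow MSC replicates 1, 2 and 3, and replication calls 1 or 2 in every such fit. Mki67 and Aurkb differed by 1.04 and -1.34 without a call. The antiproliferative gene Btg2 read 0.41, 1.12 and 1.23 against 7.66 and 6.94 (-6.38, adjusted p = 0.0049), lost without cardiomyocyte replicate 1 (-6.02, adjusted p = 0.062).

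Btg2 is also one of 9 immediate early genes, of 25, that were lower in marrow MSC; none was higher. Such genes respond to stimuli within minutes, tissue digestion among them. Fosb read 3.11, 3.09 and 4.23 against 9.35 and 9.57 (-5.98 ± 0.76, adjusted p = 0.00048), 1 cardiomyocyte spot lying near the scanner limit. Nr4a2, Klf4 and Atf3 were lower by 4.34, 3.98 and 3.77. The count depended strongly on scaling: it was 2 with medians aligned and on the deposited values, where Nr4a2, Klf4 and Atf3 were not called. It was also 3 without cardiomyocyte replicate 1 and 5 without marrow MSC replicate 1. Of 17 heat shock and chaperone genes 3 were lower, Hspa1a at 4.27, 3.74 and 4.28 against 8.42 and 8.07 (-4.15 ± 0.54, adjusted p = 0.00057), and none of these 3 was called under either other scaling, where the list median of -0.30 turned to 1.22 and 1.05. How the cells were prepared cannot be told apart from cell type in this design.

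**Figure D4:**
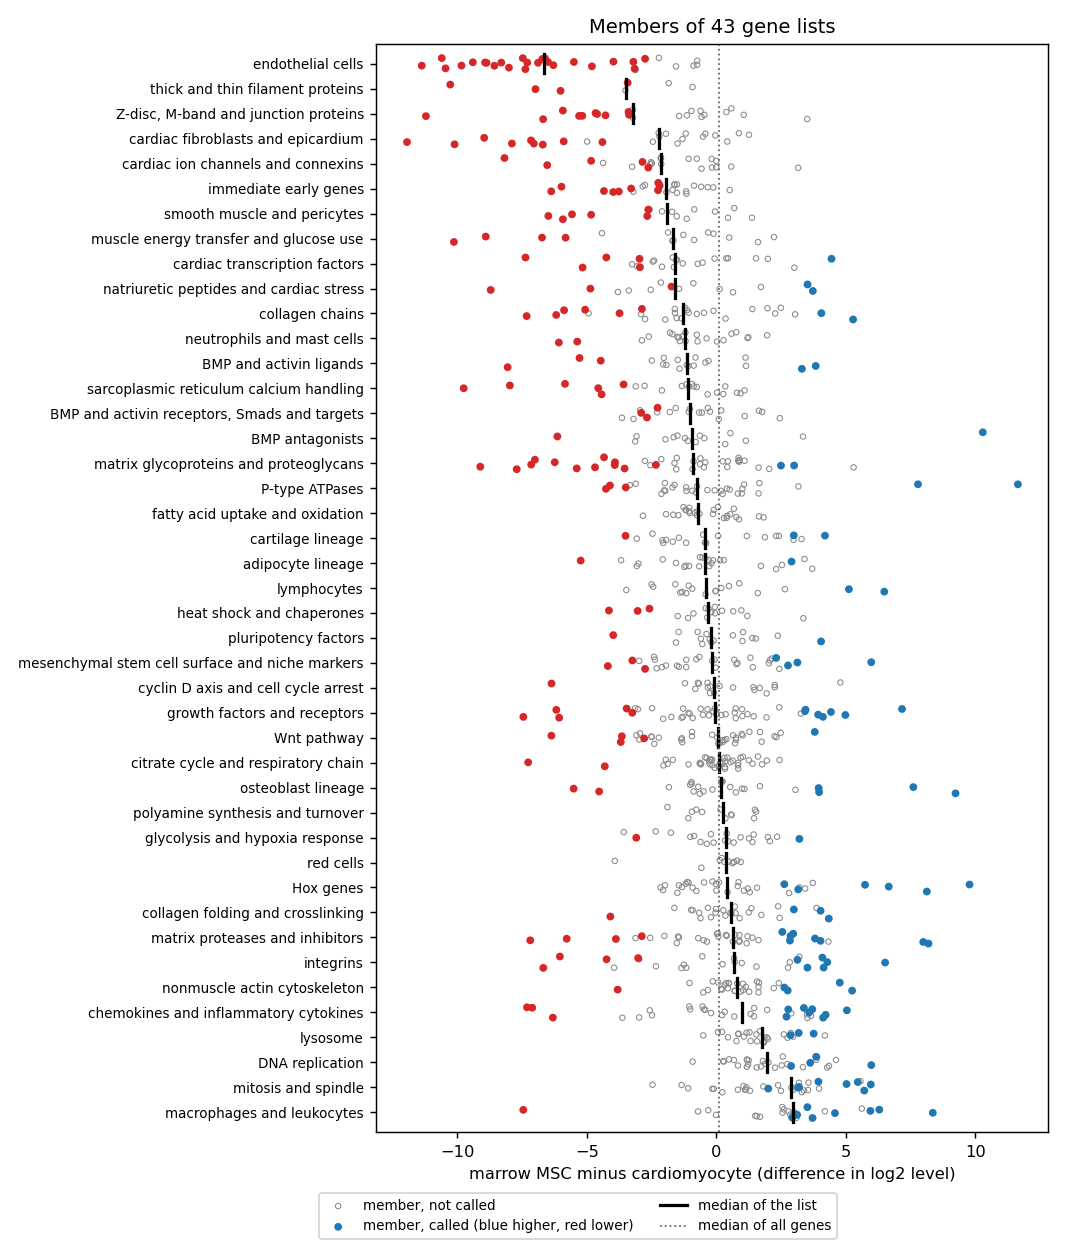
Differences in log2 level, marrow MSC minus cardiomyocyte, of the members of 43 gene lists, with called members filled (blue higher, red lower), a black bar at each list's median and a dotted line at the median of all genes (0.10). Endothelial genes (median -6.67) lie farthest to the left and macrophage genes (median 2.96) farthest to the right.

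Genes with a fill value on all arrays of 1 population have no usable level there and no fold. This held for 140 genes in marrow MSC, 7 of them called, and for 173 in cardiomyocytes, 6 of them called. Besides Ckmt2 and Art1, Gpm6a, a neuronal and epicardial membrane protein, read 4.55 and 4.92 in cardiomyocytes, Dennd2c 2.53 and 3.91 and 4732416N19Rik 0.23 and 2.46. The calls of Gpm6a and Dennd2c were lost without either cardiomyocyte array (adjusted p = 0.082 to 0.12), that of Gpm6a also without marrow MSC replicate 2 (0.051) and that of Dennd2c without each marrow MSC array (0.050 to 0.056). Besides Emx2, alpha-fetoprotein (Afp) read 2.53, 2.07 and 2.41 in marrow MSC, the dipeptidase Dpep2 1.74, 2.42 and 0.90, Rubcnl -0.97, -0.48 and -0.58 and St18 -1.82, -3.44 and -1.17. The calls of Afp and St18 were lost without cardiomyocyte replicate 1 (adjusted p = 0.067 and 0.17), St18 also without 3 other arrays (0.094 to 0.11). Other genes at the top of the comparison had levels close to the fill value in cardiomyocytes: the protease Mcpt8 read 5.07, 5.21 and 5.06 against -5.26 and -6.11, and the apolipoprotein Apoc2 4.34, 4.29 and 3.86 against -5.50 and -5.95 (10.80 and 9.89, adjusted p = 2.9e-05 and 2.5e-05).

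It was then asked which of these differences set marrow MSC apart from the other progenitor cells too. Marrow MSC minus the mean of the 4 other populations, which tests whether the distance to cardiomyocytes differs between marrow MSC and the others, called 2238 genes (12.6%), 1396 higher (7.88%) and 842 lower (4.75%). The lower share of these calls was 37.6%, and 27.0% on the deposited values. Without marrow MSC replicates 1, 2 and 3 the count was 904, 1119 and 1013. Both comparisons share the marrow MSC arrays, so their overlap is a description: of the 696 genes above cardiomyocytes 510 were also above the others, and of the 697 below cardiomyocytes 374 were also below the others. Grem1 (10.17) and Atp13a3 (10.80) were above the other populations (adjusted p = 3.3e-05 and 3.7e-06), as did Spp1 (7.71), Emx2 (8.48), Hoxc10 (7.61), Trem2 (6.66) and Itgax (7.59), with adjusted p from 2.5e-06 to 6.7e-05. For Pln the difference from the others was -4.52 (adjusted p = 0.031). Several muscle genes were not called against the others: Sln differed from them by -0.13, Tnni3 by -0.86, Actc1 by -1.57 and Atp2a2 by 0.40, none called (adjusted p = 0.22 to 0.92), which does not show that they are alike. Several vessel and stroma genes were below the mean of the others as well. Dpt differed from it by -8.90, Fgd5 by -7.13, Eln by -5.23 and Ptprb by -5.53 (limma adjusted p = 2.7e-05 to 0.00021). For Ptprb, however, the marrow c-kit arrays (-4.02, -4.57 and -3.08) overlapped the marrow MSC arrays (-5.50, -5.26 and -3.03). Eln overlapped on these arrays too, while Dpt and Fgd5 did not. Slfn5 was the 1 gene with opposite signs: its difference was -2.31 from cardiomyocytes and 1.85 from the others (adjusted p = 0.025 and 0.010).

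**Figure D5:**
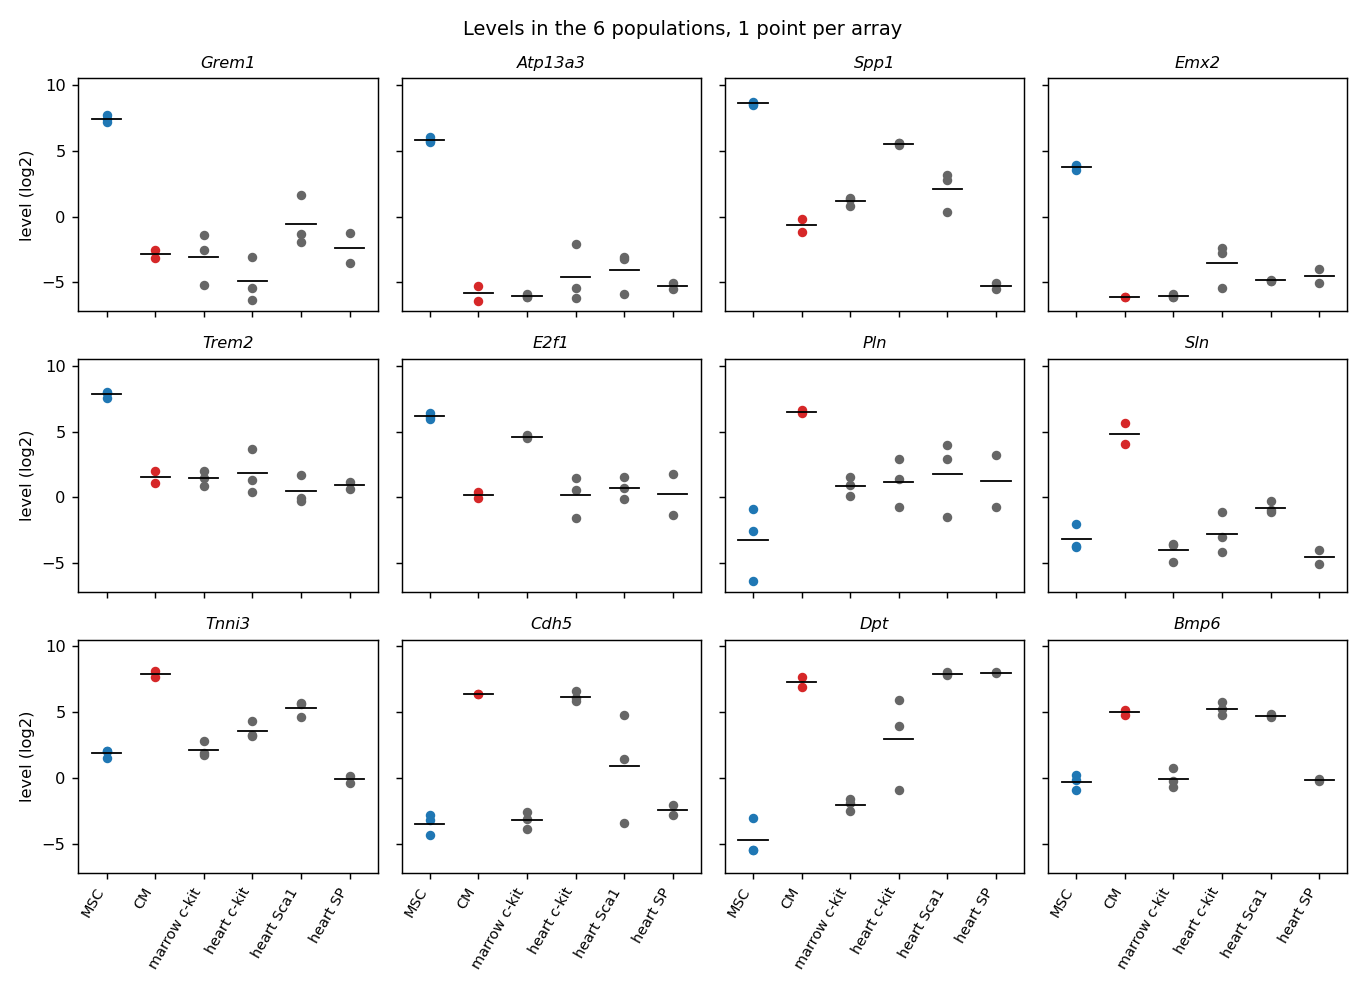
Log2 levels of 12 genes in the 6 populations, with 1 point per array and black bars at the means; marrow MSC are blue, cardiomyocytes red and the other populations grey. Grem1, Atp13a3 and Emx2 are high on the marrow MSC arrays alone among those plotted. Sln is high on the cardiomyocyte arrays alone and low on the arrays of every other population, marrow MSC included.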

How the data were processed

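The authors deposited log2 values of Cy5 intensities for 26423 probes, each array shifted by a constant; of a 2-colour array only Cy5 was used, per the labels' series text. Background correction is not stated in the labels, nor is the origin of the fill value. RNA was amplified and labelled with Cy5, per the labels' protocols. Symbols were found for 20339 probes (GRCm38.p6 names), giving 17710 genes, each read from its probe with the highest mean. Arrays were quantile-normalized over all probes and fitted with 6 group means on 16 arrays (limma 3.58.1, R 4.3.3; residual df 10, prior df 3.81), p-values adjusted by Benjamini-Hochberg. Cardiomyocytes have only 2 arrays, which limits the precision. Members, the 43 gene lists and the naming rule were chosen with earlier results of these data known. The rule took the markers, the 15 highest and 15 lowest called genes, up to 5 called members per list and relatives of the markers; other list members in the text were chosen after their values were seen. Alternatives were other scalings, filters, probe means, moderation, weights, a replicate block, the 5 arrays alone and each array left out. The procedure was tested on simulated data with 200 genes changed in marrow MSC. Changes of 1, 2, 4 and 6 log2 units were called in 0%, 2%, 38.7% and 66.7% of cases. Of the calls 5.29% were false. A gene that was not called may therefore still differ.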

Additional observations from a re-analysis of the deposited data

Results flagged for a closer look

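The distance of marrow MSC from cardiomyocytes differed from that of the other populations, by the contrast with the mean of the 4 others, for Grem1 (10.17), Atp13a3 (10.80) and Pln (-4.52), with limma adjusted p = 3.3e-05, 3.7e-06 and 0.031. It did so with the same sign for 884 of the genes called against cardiomyocytes. Slfn5 was called with opposite signs, 1.85 from the other populations and -2.31 from cardiomyocytes; its array levels were 5.06, 5.57 and 4.94 in marrow MSC, 8.07 and 6.92 in cardiomyocytes, and its means ranged from -2.60 in marrow c-kit cells to 6.15 in heart c-kit cells.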

How the results depend on the processing

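The main count of 1393 became 749 with medians aligned only, 926 on the deposited values, 2225 when every value under the 30th percentile was set to it and 2298 with only the 5 arrays compared; without 1 array it ranged from 462 to 855. The shared calls numbered 670, 779, 1341 and 1257 in the first 4 of these. It was 1580 without the lowest 30% of genes, 1394 with probe means, 1736 with trend and robust moderation, 2040 with array weights and 1590 with fill values left out, which was chosen after seeing the data. The count against the 4 other populations, 2238, became 4334 with array weights, and 904 to 2155 without 1 array. Whether replicate numbers pair the samples is not known. Deviations of same-numbered arrays from their group means correlated at -0.15 and -0.18. These values cannot decide it, because the deviations of only 2 cardiomyocyte arrays mirror each other. With a replicate block the counts were 1172 and 2109, 1116 and 2008 of them shared. Of 184 named called genes 87 stayed called in all 5 fits without 1 array and 97 were lost in at least 1; 99 stayed without cardiomyocyte replicate 1, 118 without cardiomyocyte replicate 2 and 131 to 135 without a marrow MSC array. With medians aligned 127 stayed. Rcan1 turned from -1.73 to 0.0076 with medians aligned. The causes were not tested. Signals near the fill value limit the size of many differences.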

Other observations

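Several gene groups showed little. Of 22 glycolysis and hypoxia genes the lactate exporter Slc16a3 was higher in marrow MSC, at 5.06, 4.87 and 5.18 against 1.15 and 2.51 (3.21, adjusted p = 0.0053; 2.53 and 0.086 without cardiomyocyte replicate 1), and the glucose transporter Slc2a3 was lower (-3.09, adjusted p = 0.043; lost without either cardiomyocyte array, at 0.15 and 0.16, without marrow MSC replicates 2 or 3 and under both other scalings). Of 22 neutrophil and mast cell genes S100a9 read -1.29, -0.53 and -2.84 against 3.68 and 3.96 (-5.37, adjusted p = 0.0022), and Hdc was lower by 6.08, lost without cardiomyocyte replicate 2 (-4.66, adjusted p = 0.14) and without marrow MSC replicate 1 (0.068). Of 19 lymphocyte genes the interleukin 7 receptor Il7r was higher, at 4.80, 5.70 and 5.28 against -1.20 and -1.25 (6.49, adjusted p = 0.00092), and Cd4 by 5.12, lost without cardiomyocyte replicate 1 (3.02, adjusted p = 0.47) and without any 1 marrow MSC array (0.075 to 0.11). None of 10 red cell genes was called. Of 17 pluripotency genes Dppa3 was higher by 4.04, lost in every fit without 1 array (adjusted p = 0.060 to 0.14), and Klf4, also an immediate early gene, was lower. Gdf15, a stress cytokine, was higher by 3.73 (adjusted p = 0.0045; 3.21 and 0.070 without cardiomyocyte replicate 1).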
